A study of Homo sapiens with 2 samples.

Results

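The genes described here are named for histones, the proteins around which DNA is wrapped, and comprise 65 of the 20981 genes in the table. They were chosen by symbol: 56 begin with HIST1H, HIST2H, HIST3H or HIST4H and are called clustered here, and the other 9 are the variant genes H1F0, H1FX, H2AFJ, H2AFV, H2AFX, H2AFY, H2AFZ, H3F3A and H3F3B. Of the clustered symbols, 5 carry PS and a number, the mark of a pseudogene. RNA was sequenced from PANC-1, an established line from a human pancreatic duct carcinoma, carrying a short hairpin RNA, which was a control (shCtrl) in 1 group and named for WBSCR22 (shWBSCR22) in the other. WBSCR22, listed in the table as BUD23, methylates ribosomal RNA in the small subunit of the ribosome. There was 1 library per group and 2 in all. The labels do not say whether the hairpin cells were a pool or a clone, how long they had carried the hairpin, or whether polyadenylated RNA was selected.

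Clustered histone genes are transcribed mainly in S phase, when newly copied DNA is packed into nucleosomes. Their mRNAs usually end in a short stem-loop, bound by SLBP, in place of a poly(A) tail, although some of these genes also give polyadenylated transcripts. Variant genes are mostly transcribed throughout the cell cycle, usually give polyadenylated mRNAs, and supply histones that can be exchanged into chromatin outside replication. H2A, H2B, H3 and H4 form the core of the nucleosome, and linker histones (H1) bind the DNA between cores.

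The stem-loop is shown because it is the sequence that mostly sets the 2 kinds of gene apart. The histone stem-loop consensus, paired arms around a loop that opens with TTT, was searched on the sense strand of GENCODE release 29 transcripts (GRCh38). They occurred in 29 of 55 clustered genes with a transcript there (52.7%), in 1 of the 9 variant genes, H2AFX, and in 60 of all 20938 genes of the table with a transcript (0.287%). For 16 clustered genes, HIST1H1C among them, the annotated transcripts hold coding sequence only, so the letters could not be found there. In the following loops the paired arms are in capitals and the loop is in lower case.
HIST1H2AE (chr6:26217417-26217432, plus strand): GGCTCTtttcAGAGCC
HIST1H2BG (chr6:26216218-26216233, minus strand): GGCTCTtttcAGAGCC
HIST1H2BD (chr6:26158587-26158602, plus strand): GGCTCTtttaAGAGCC
HIST1H4J (chr6:27824459-27824474, plus strand): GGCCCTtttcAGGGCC
HIST1H4I (chr6:27139654-27139669, plus strand): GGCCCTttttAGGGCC
H2AFX (chr11:119094898-119094913, minus strand): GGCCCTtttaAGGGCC
The H2A and H2B loops shown here have the same arms, and the arms of the H4 loops match those of H2AFX. Annotated transcripts of 22 clustered genes also ended in AATAAA or ATTAAA within their last 40 bases.

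The promoters of H1FX, HIST1H1C and H2AFJ, the genes that differed most in counts, and of HIST1H2AE, which lies head to head with HIST1H2BG, are given next, from RefSeq (GRCh38.p14), from 250 bases before to 50 bases after the RefSeq start. Capitals mark matches, on either strand, to the CCAAT box, the TATA box TATAAA, the H1 box AAACACA, known from linker histone promoters, and the octamer ATTTGCAT, known from H2B promoters. On the other strand these read as their reverse complements.
H1FX (chr3:129316237-129316536, minus strand): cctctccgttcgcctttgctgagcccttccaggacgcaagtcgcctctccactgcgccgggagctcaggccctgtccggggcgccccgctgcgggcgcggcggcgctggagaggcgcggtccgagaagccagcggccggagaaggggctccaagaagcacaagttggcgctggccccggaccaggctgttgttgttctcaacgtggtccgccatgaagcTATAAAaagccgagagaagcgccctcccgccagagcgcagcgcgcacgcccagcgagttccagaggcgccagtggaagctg
HIST1H1C (chr6:26056421-26056720, minus strand): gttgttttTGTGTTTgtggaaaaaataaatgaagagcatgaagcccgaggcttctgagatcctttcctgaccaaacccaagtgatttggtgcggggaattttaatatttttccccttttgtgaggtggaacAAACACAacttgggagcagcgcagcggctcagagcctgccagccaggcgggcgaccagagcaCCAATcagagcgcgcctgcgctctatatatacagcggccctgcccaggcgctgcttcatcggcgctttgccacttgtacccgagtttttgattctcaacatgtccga
H2AFJ (chr12:14774155-14774454, plus strand): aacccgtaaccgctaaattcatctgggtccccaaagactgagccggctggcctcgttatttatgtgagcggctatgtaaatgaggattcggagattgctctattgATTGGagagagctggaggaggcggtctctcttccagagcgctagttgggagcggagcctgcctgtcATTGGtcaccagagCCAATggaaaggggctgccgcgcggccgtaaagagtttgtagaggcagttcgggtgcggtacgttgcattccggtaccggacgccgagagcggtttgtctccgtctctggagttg
HIST1H2AE (chr6:26216671-26216970, plus strand): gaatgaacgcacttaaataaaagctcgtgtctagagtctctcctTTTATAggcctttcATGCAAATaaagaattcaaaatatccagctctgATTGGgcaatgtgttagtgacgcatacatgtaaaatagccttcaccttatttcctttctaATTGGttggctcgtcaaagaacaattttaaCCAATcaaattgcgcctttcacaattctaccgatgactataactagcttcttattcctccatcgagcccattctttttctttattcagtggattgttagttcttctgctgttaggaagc
A promoter was found for 55 of the 65 genes, 47 clustered and 8 variant. CCAAT was in 39 of the 47 clustered promoters (83.0%) and in 35.7% of all 27305 RefSeq promoters. TATAAA was in 31 (66.0%, against 12.0% of all), the octamer in 18 (38.3%, against 1.80%) and the H1 box in 5 (10.6%, against 5.76%). Among the 8 variant promoters 6 held CCAAT, 4 held TATAAA, 1 held the octamer and 0 the H1 box. No match overlapped another in the sequences shown. The HIST1H1C window holds the H1 box on both strands, the H1FX window a TATA match alone, and the H2AFJ window 3 CCAAT matches. The HIST1H2AE window reaches over the start of HIST1H2BG, its neighbour on the other strand.

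The libraries held 16121638 counts in shCtrl and 15248099 in shWBSCR22. BUD23 had 3487 counts in shCtrl and 1892 in shWBSCR22, a log2 ratio of -0.72 (95% counting interval -0.80 to -0.63). The duct keratins KRT7, KRT8 and KRT18 were abundant in both libraries, with 12142 to 77459 counts each, whereas KRT19 was at 0 in both and EPCAM and CDH1 had at most 15 counts. Summed over the markers found, fibroblast genes had 881 and 1868 counts in shCtrl and shWBSCR22, leukocyte genes 202 and 14, and endothelial genes 14 and 46, where CDH5 was at 0 in both. Of the leukocyte counts, LYZ held 191 in shCtrl and 0 in shWBSCR22. The acinar markers PRSS1, CPA1 and CELA3A were not found in the table under these symbols. Nor were PTPRC, CD3E, COL1A2 and VWF. The part of these levels in the histone values was not tested.

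Ratios below are log2 of shWBSCR22 over shCtrl on counts scaled by the trimmed mean of M-values (TMM), with 0.5 counts added for single genes. Calls of higher or lower needed a ratio of at least 1 in size and a counting interval that left out 0. Intervals cover counting error only, because reads carry no molecular identifiers and there is no second library of either group. Values therefore compare 2 libraries and not 2 conditions. Low counts of 8 in shCtrl and 15 in shWBSCR22 were the most frequent, so a wider interval was also taken after dividing the counts by these numbers. In bulk RNA a change in the share of cells that express a gene and a change of its RNA per cell cannot be told apart.

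Histone counts were higher in shWBSCR22 in both classes, and the linker histones made up most of the rise. The 56 clustered genes summed to 3332 counts in shCtrl and 5969 in shWBSCR22, a log2 ratio of 1.01 (0.95 to 1.07; wider interval 0.81 to 1.21). The 9 variant genes summed to 27634 and 40106 counts, a log2 ratio of 0.70 (0.68 to 0.73; wider interval 0.63 to 0.78). A single gene dominated each sum: HIST1H1C held 42.3% of clustered counts in shCtrl and 53.4% in shWBSCR22, and H1FX held 57.4% and 65.7% of variant counts. Without HIST1H1C the clustered sum was 1921 and 2782, a log2 ratio of 0.70 (wider interval 0.42 to 0.98). Without H1FX the variant sum was 11780 and 13742, a log2 ratio of 0.39 (wider interval 0.27 to 0.51).

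Set against each other, clustered genes took 10.8% of all histone counts in shCtrl (exact binomial interval 10.4 to 11.1) and 13.0% in shWBSCR22 (12.6 to 13.3). On FPKM the share was 23.8% and 27.7%. The share of counts needs no scaling between libraries, and the log2 ratio of its odds was 0.30 (0.24 to 0.37; wider interval 0.09 to 0.51, by a normal approximation on the log scale). Without HIST1H1C the share was 6.50% in shCtrl and 6.49% in shWBSCR22, a log2 odds ratio of -0.0031. Without H1FX alone the share was 22.0% and 30.3%, a log2 odds ratio of 0.62. Without both HIST1H1C and H1FX the share was 14.02% and 16.8%, a log2 odds ratio of 0.31 (wider interval 0.01 to 0.61). The balance of the classes thus depended on which of these linker histones was counted.

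**Figure D1:**
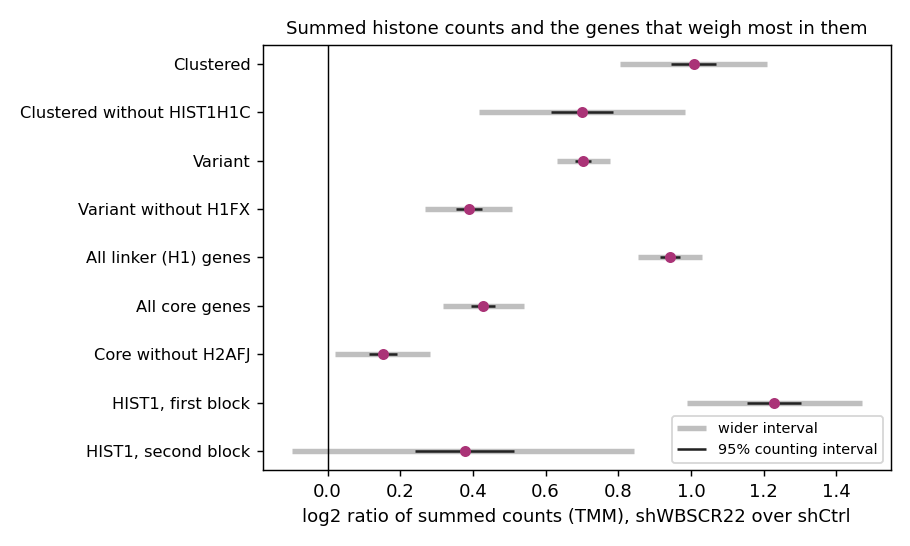
Log2 ratio of summed TMM-scaled counts, shWBSCR22 over shCtrl, for groups of histone genes (1 library per group). Points are the ratios, dark lines the 95% counting intervals and grey bars the wider intervals; first and second block are the HIST1 genes near 26 Mb and near 27 Mb. The clustered sum (1.01) drops to 0.70 without HIST1H1C, and core genes without H2AFJ lie at 0.15.

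Counts were also split by role in the nucleosome. All 7 linker histone genes together had 17416 counts in shCtrl and 29819 in shWBSCR22, a log2 ratio of 0.94 (wider interval 0.85 to 1.03). All 58 core histone genes had 13550 and 16256, a log2 ratio of 0.43 (wider interval 0.32 to 0.54). Linker genes thus took 56.2% of histone counts in shCtrl and 64.7% in shWBSCR22, a log2 odds ratio of 0.51 (0.47 to 0.56; wider interval 0.37 to 0.65). Its difference from the 0.30 of the clustered share was not tested. On the deposited FPKM, which are per length, the linker share was 69.2% and 75.4%. Without H2AFJ the core sum was 11120 and 11015 counts, which after scaling is a log2 ratio of 0.15 (wider interval 0.02 to 0.28). H1FX alone held 15854 of the linker counts in shCtrl and 26364 in shWBSCR22, and no sum of all linker genes without it was taken.

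**Figure D2:**
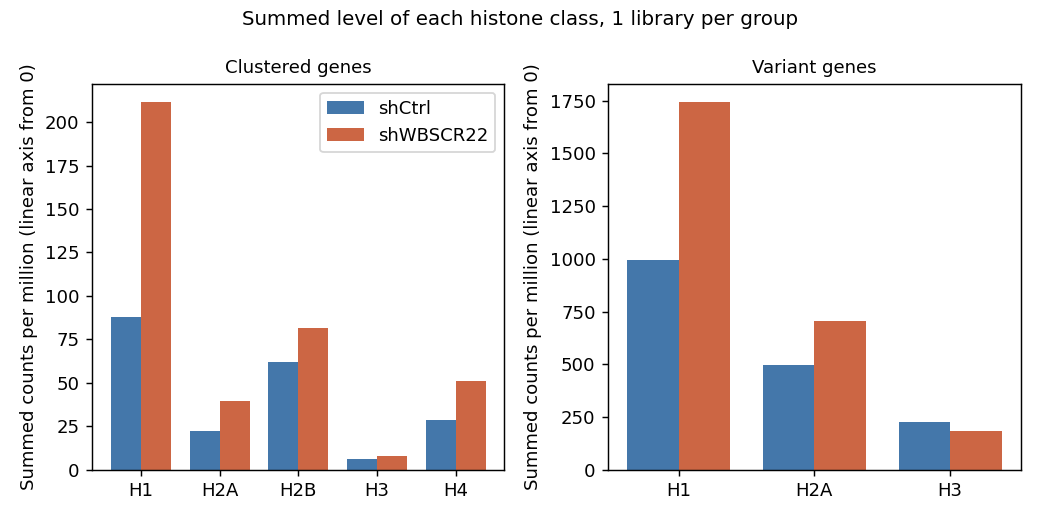
Summed counts scaled to 1000000 counts per library (CPM, linear axis from 0) of each histone class in shCtrl and shWBSCR22, clustered genes on the left and variant genes on the right; there are no error bars because each bar is 1 library. The H1 bars differ most in both panels, and variant H3 is the only class that is lower in shWBSCR22.

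Among linker histones, H1FX, a replication-independent H1, had the highest level of all 65 genes. Its count was 15854 in shCtrl and 26364 in shWBSCR22, and its FPKM 651 and 1143. The log2 ratio was 0.90 (0.87 to 0.93; wider interval 0.81 to 0.99), below the size needed for a call. Of 184 genes at a similar level, 3 had a higher ratio (1.63%). H1FX-AS1, on the opposite strand, shares 17.2% of the 50-base words of the H1FX transcript, and the sources used here do not say whether strand was used in counting.

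HIST1H1C, one of the somatic linker histones and the clustered gene with the most counts, had 1411 counts in shCtrl and 3187 in shWBSCR22, with FPKM of 136 and 324. Its log2 ratio was 1.34 (1.25 to 1.43; wider interval 1.05 to 1.64), and 17 of 1484 genes at a similar level had a higher one (1.15%). No 50-base word of its annotated transcript occurs in another gene. H1F0, the linker histone known from differentiated and resting cells, had 143 and 229 counts, a log2 ratio of 0.84 (wider interval -0.24 to 1.91). H1FX and HIST1H1C were thus higher beyond the wider interval, and H1F0 was not resolved by it.

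The other clustered linker genes had at most 26 counts in a library. HIST1H1B had 0 counts in shCtrl and 26 in shWBSCR22, and HIST1H1D had 0 and 13. Their wider intervals include no change, from -1.81 upward for HIST1H1B and from -5.05 upward for HIST1H1D on the log2 scale. HIST1H1E was at 0 in both libraries, and the pseudogene HIST1H1PS1 had 8 counts in shCtrl and 0 in shWBSCR22. HIST1H1B and HIST1H1D encode replication-dependent linker histones. The most frequent low count of shWBSCR22 was 15, between their counts of 26 and 13.

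H2AFJ was the only variant gene called higher, beside 12.2% called higher and 11.9% called lower of the 12980 genes that averaged 1 count per 1000000 (CPM) or more over the libraries. It encodes a histone H2A variant that accumulates in senescent human fibroblasts. Its counts were 2430 in shCtrl and 5241 in shWBSCR22, and its FPKM 44.8 and 102. The log2 ratio was 1.27 (1.21 to 1.34; wider interval 1.05 to 1.501), and 10 of 1058 genes at a similar level had a higher one. HIST4H4, an H4 gene whose start lies 3251 bases from that of H2AFJ on chromosome 12 and points away from it, had 0 counts in shCtrl and 40 in shWBSCR22. Set against a floor of 3 counts that is 14.96-fold higher, a ratio that leaves out the counting error of the 40. The counting interval of HIST4H4 runs from 3.54 upward on the log2 scale, but its wider interval includes no change (from -0.51 upward).

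H2AFZ and H2AFV encode closely related forms of the variant placed at promoters. H2AFZ had 1642 counts in shCtrl and 1959 in shWBSCR22, a log2 ratio of 0.42 (wider interval 0.09 to 0.74). H2AFV had 1874 and 1806, a log2 ratio of 0.11 (wider interval -0.22 to 0.44). The difference between these ratios was not tested, and their wider intervals overlap. H2AFX, whose protein is phosphorylated around DNA breaks, had 1623 and 1270 counts, a log2 ratio of -0.19 (wider interval -0.57 to 0.18). H2AFY, which encodes macroH2A, had 429 and 444, a log2 ratio of 0.22 (wider interval -0.48 to 0.89).

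H3F3A and H3F3B encode the same replacement H3 protein from different mRNAs. H3F3B had 3274 counts in shCtrl and 2478 in shWBSCR22, with FPKM of 33.0 and 26.4. Its log2 ratio was -0.24 (-0.31 to -0.16; wider interval -0.51 to 0.03), the lowest of the 9 variant genes. H3F3A had 365 and 315 counts, a log2 ratio of -0.05 (wider interval -0.87 to 0.73). Together H3F3A and H3F3B gave a log2 ratio of -0.22 (wider interval -0.47 to 0.03), beside 0.59 for the 5 variant H2A genes (0.45 to 0.73) and 0.90 for the variant linker genes (0.81 to 0.99).

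The variant genes therefore did not move as 1 group. Their median log2 ratio was 0.22, 6 lay above 0 and 3 below, beside 49.1% above 0 of all genes at that level. For H1FX, H2AFJ and H2AFZ the whole wider interval was above 0, and for 0 variant genes it was below 0, beside 10.8% and 8.2% of all genes at 1 CPM. Those shares take in all genes from 1 CPM up, whereas 6 of the 9 variant genes averaged at least 30 CPM. No share was taken at that level, so an excess was not tested.

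**Figure D3:**
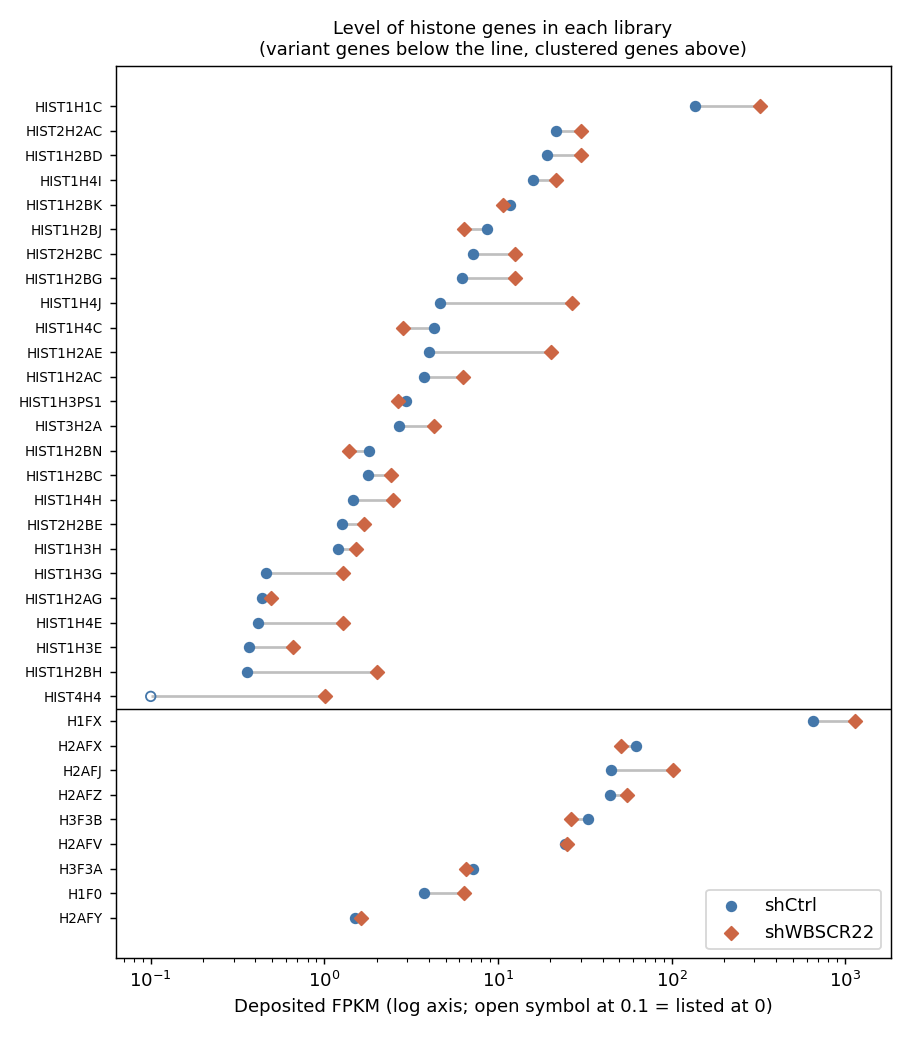
Deposited FPKM (log axis) of the 34 histone genes that averaged 1 CPM or more, shCtrl as circles and shWBSCR22 as diamonds, joined by a line; an open symbol at 0.1 stands for a value listed at 0. H1FX (651 and 1143) and HIST1H1C (136 and 324) top the variant and clustered genes.

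Of the 56 clustered genes, 9 had 0 counts in both libraries (HIST1H1E, HIST1H2AJ, HIST1H2BE, HIST1H2BF, HIST1H2BPS2, HIST1H3A, HIST1H3B, HIST1H3J and HIST2H3D) and 47 had a count in at least 1. Of these, 8 were at 0 only in shCtrl and 12 only in shWBSCR22, where 7.73% and 16.6% of all genes with a count were. Only 25 reached a mean of 1 CPM, while all 9 variant genes did. In 5 of the 25 a level of at least 1 CPM was reached in shWBSCR22 alone, so these 5 had to lie above 0, and they supply 3 of the calls that follow (HIST1H2BH, HIST4H4 and HIST1H4E).

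With that limit, 8 of the 25 were called higher and 0 lower, beside 12.2% and 11.9% of all genes at that level. At a mean of 1 to under 5 CPM, 4 of 14 were called higher and 24.3% of all genes were, so the count there was near the background. At 5 to under 30 CPM, 3 of 10 were called higher (9.09% of all genes), and HIST1H1C was the only clustered gene above 30 CPM (3.23% of all genes). The median of the 25 was 0.76 (order-statistic interval 0.50 to 1.10), with 20 above 0, the 5 just named among them, and 5 below. Neither the count nor the median of the 25 is therefore evidence of a direction. Over the 47 with any count the median was 0.56 (-0.05 to 1.10). It was also 0.56 over 45 of them, with 0 counts in 1 library replaced by a floor of 3 counts and 2 genes under that floor left out. Of the 47, 30 lay above 0 (45.8% of all such genes). In all, 15 were called higher and 10 lower, beside 16% and 21.1%. The median of all genes was -0.02 at 1 CPM and -0.10 over every gene with a count.

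The wider interval kept 4 of the 8 calls, HIST1H1C, HIST1H4J, HIST1H2AE and HIST1H2BG, and added 0 called lower, beside 4.19% called higher and 2.98% called lower that way of all genes at 1 CPM. HIST1H2BH (12 and 63 counts), HIST1H3G (18 and 47), HIST1H4E (10 and 29) and HIST4H4 (0 and 40) lost their calls with it.

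**Figure D4:**
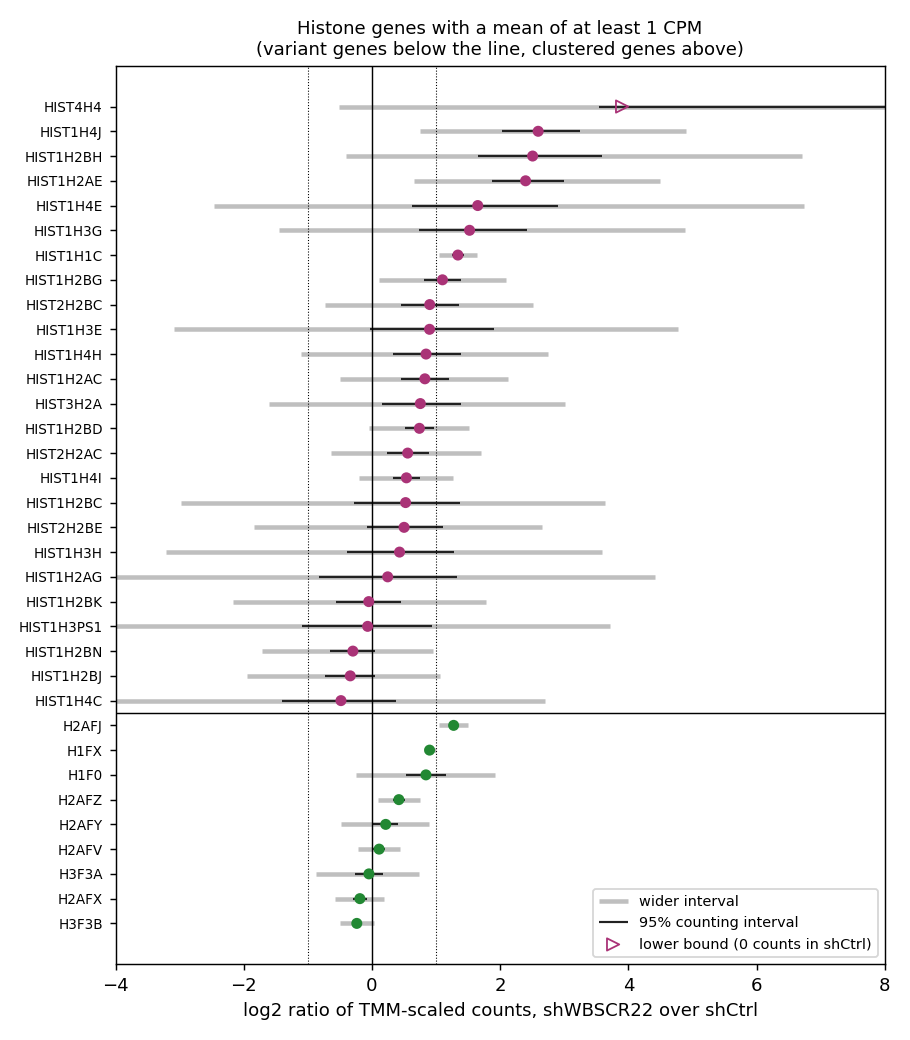
Log2 ratio of TMM-scaled counts, shWBSCR22 over shCtrl, for the 34 histone genes that averaged 1 CPM or more; dark lines are 95% counting intervals, grey bars wider intervals, and both are clipped at the edges of the axis. Dotted lines mark a log2 ratio of 1 in size. The open triangle, labelled lower bound, is HIST4H4 against a floor of 3 counts, and its counting interval starts lower. HIST1H4J (2.59) and HIST1H2AE (2.40) have wider intervals above 0, unlike HIST1H2BH.

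HIST1H2AE and HIST1H2BG, an H2A and an H2B gene whose starts lie 282 bases apart on opposite strands of chromosome 6, were both called higher. HIST1H2AE had 33 counts in shCtrl and 157 in shWBSCR22, with FPKM of 4.01 and 20.2. Its log2 ratio was 2.40 (1.87 to 3.004; wider interval 0.66 to 4.50). HIST1H2BG had 153 and 293 counts, with FPKM of 6.17 and 12.5, a log2 ratio of 1.10 (0.82 to 1.39; wider interval 0.12 to 2.09). Their loops, shown above, are letter for letter the same, and no 50-base word of either transcript occurs in another gene.

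In the other head-to-head H2A and H2B pairs no gene was resolved by the wider interval, so whether paired genes moved together is not known. Of the 9 pairs of clustered genes with starts within 500 bases, HIST1H2BC and HIST1H2AC were both above 0, with 24 and 31 counts and 101 and 160. HIST2H2BE (45 and 57) and HIST2H2AC (137 and 180) also lay above 0, at log2 ratios of 0.50 and 0.56. So did HIST2H2BC (67 and 112) with HIST2H2AA4 (2 and 8), and HIST2H2AA3 (0 and 8) with HIST2H2BD (4 and 4). In contrast HIST3H2A had 39 counts in shCtrl and 59 in shWBSCR22, while HIST3H2BB, 233 bases away, had 23 and 0. HIST1H2BL and HIST1H2AI were both lower, at 0 in shWBSCR22 with 13 and 6 counts in shCtrl. HIST1H2BJ (132 and 93) and HIST1H2AG (16 and 17) lay on opposite sides of 0. The remaining pair holds an H3 gene, HIST1H3J (0 and 0), beside HIST1H2BO (15 and 0). The wider intervals of all the H2A and H2B genes named in this paragraph include 0.

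Among the other H2A genes, HIST1H2AC had a log2 ratio of 0.83 (wider interval -0.49 to 2.13) and HIST2H2AC 0.56 (-0.64 to 1.71). HIST2H2AC shares 30.5% of its words with other genes, most of all HIST2H2AA3. All 13 clustered H2A genes summed to 357 counts in shCtrl and 602 in shWBSCR22, a log2 ratio of 0.92 (wider interval 0.27 to 1.57). HIST1H2AL was seen in shCtrl alone, with 19 counts, and its wider interval includes no change (up to 2.97 on the log2 scale). HIST2H2AA3 (0 and 8 counts) and HIST2H2AA4 (2 and 8) share 100% and 97.1% of their 50-base words, so their reads cannot be assigned with certainty. HIST2H2AB had 4 and 0 counts, HIST1H2AB 0 and 7, and the pseudogene HIST1H2APS4 0 and 6.

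The 18 H2B genes summed to 1002 counts in shCtrl and 1246 in shWBSCR22, a log2 ratio of 0.48 (wider interval 0.06 to 0.89). HIST1H2BD, the H2B gene with the most counts, had 269 and 401, a log2 ratio of 0.74 (0.52 to 0.97; wider interval -0.05 to 1.52). HIST1H2BN (160 and 116 counts, log2 ratio -0.30) and HIST1H2BJ (132 and 93, -0.34) lay below 0, with counting intervals that include 0. HIST1H2BK, with 72 and 62 counts, shares 74.1% of its words with other genes. HIST2H2BC had 67 and 112 counts, a log2 ratio of 0.90 (wider interval -0.73 to 2.52). The longest GENCODE transcript of HIST2H2BD, 3612 bases, shares 71.0% of its words with other genes, most of all HIST2H2BC. The deposited span of HIST2H2BD is only 493 bases, so that share may not describe the gene as counted. Whether reads of these genes could be told apart is not known. At the low end HIST1H2BO (15 counts), HIST2H2BF (13) and HIST3H2BB (23) were seen in shCtrl alone, HIST1H2BPS1 (14) in shWBSCR22 alone, and HIST2H2BD had 4 counts in each.

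The 10 H4 genes all encode the same protein, and summed to 459 counts in shCtrl and 775 in shWBSCR22, a log2 ratio of 0.92 (wider interval 0.35 to 1.49). HIST1H4J had 28 and 153 counts, with FPKM of 4.64 and 26.8. Its log2 ratio was 2.59 (2.03 to 3.25; wider interval 0.76 to 4.90). HIST1H4J shares 81.2% of its words with HIST1H4K, which had 1 and 21 counts, a log2 ratio of 3.98 (1.92 to 9.93), so reads of these 2 genes cannot be assigned with certainty. HIST1H4I, with the most H4 counts, had 332 and 430, a log2 ratio of 0.54 (wider interval -0.20 to 1.26). HIST1H4H had 51 and 82 counts (log2 ratio 0.84) and HIST1H4C 30 and 19 (-0.48). HIST1H4B had 6 and 0 counts, HIST2H4A 1 and 0, and HIST2H4B 0 and 1.

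H3 was the class with the fewest clustered counts, 95 in shCtrl and 120 in shWBSCR22 over 10 genes. Its log2 ratio was 0.50, with a wider interval of -0.995 to 1.92, so no direction was detectable at this depth. Summed FPKM, which are per length, were 7.55 in shCtrl and 6.13 in shWBSCR22, the opposite direction to the counts. HIST1H3H had 24 and 29 counts, HIST1H3E 16 and 27 and the pseudogene HIST1H3PS1 20 and 17. HIST1H3C had 11 and 0, and HIST1H3F 6 and 0.

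The HIST1 genes lie in 2 blocks on chromosome 6. The 26 genes near 26 Mb summed to 2179 counts in shCtrl and 4553 in shWBSCR22, a log2 ratio of 1.23 (wider interval 0.99 to 1.47). Without HIST1H1C these were 768 and 1366, a log2 ratio of 1.00 (0.57 to 1.43). The 16 genes near 27 Mb summed to 818 and 947, a log2 ratio of 0.38 (wider interval -0.10 to 0.84). The difference between the blocks was not tested, and without HIST1H1C their wider intervals overlap. Single genes crossed the blocks, with HIST1H4J near 27 Mb at 2.59 and HIST1H4C near 26 Mb at -0.48. The 11 HIST2 genes gave 273 and 370 counts, and the 2 HIST3 genes 62 and 59.

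A split of the clustered genes by stem-loop or poly(A) signal is void, because the annotated transcripts of 16 of the 56 hold coding sequence only. HIST1H1C is among these 16. Shared sequence could be read for 55 of the 56, all but HIST2H2BC. The 30 genes with under 5% of their 50-base words in another gene had 2424 counts in shCtrl and 4784 in shWBSCR22, a log2 ratio of 1.15 (wider interval 0.92 to 1.38), or 0.82 without HIST1H1C. The 12 genes with 5 to under 50% shared had 719 and 816, a log2 ratio of 0.35 (wider interval -0.16 to 0.85). The 13 genes with at least 50% shared had 122 and 257, a log2 ratio of 1.24 (wider interval 0.16 to 2.34), or 0.31 without HIST1H4J. HIST2H2BD, with 4 counts in each library, is among the 13 through a transcript longer than its deposited span. The differences between these groups were not tested.

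**Figure D5:**
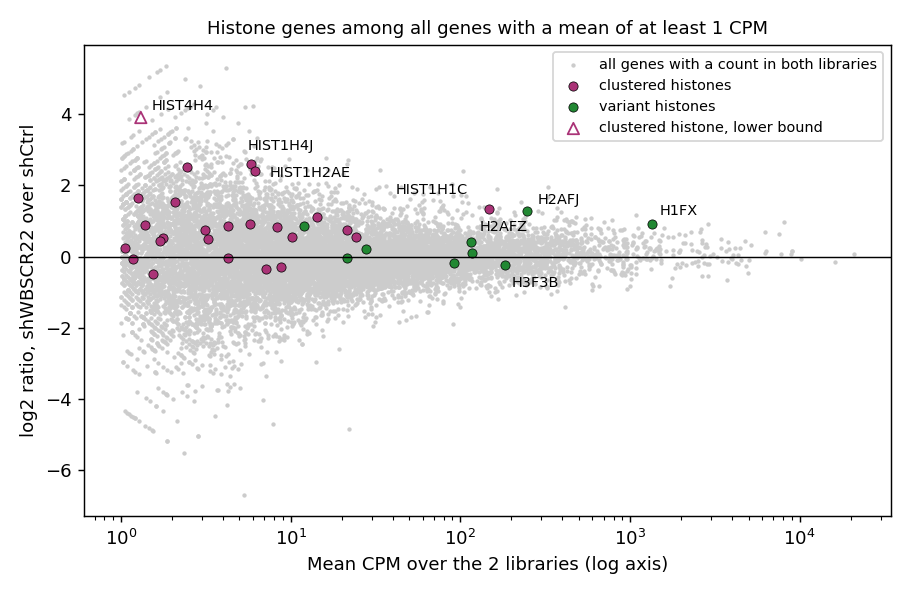
Log2 ratio (shWBSCR22 over shCtrl) against mean CPM (log axis) for the 12625 genes that averaged 1 CPM or more with a count in both libraries (grey), clustered histones (purple) and variant histones (green); the triangle is the lower bound of HIST4H4, and the other genes at 0 in 1 library are not drawn. H1FX, H2AFJ and HIST1H1C lie at the upper edge of genes of their level, at 0.90, 1.27 and 1.34.

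Genes that act on histones and their mRNAs were called in both directions, where 12.2% of all genes at 1 CPM were called higher and 11.9% lower. Genes at 1 to under 5 CPM raise these shares, with 24.3% called higher, and most of the listed genes have higher levels. Shares at the levels of each list were not taken. Of 23 measured genes for histone mRNA processing, 1 was called higher and 3 lower, and their median log2 ratio was -0.03. SLBP, which binds the stem-loop, had 132 counts in shCtrl and 176 in shWBSCR22, a log2 ratio of 0.58 (0.25 to 0.92; wider interval -0.63 to 1.75). NPAT, which activates histone gene transcription in S phase, had 33 and 35 counts. UPF1, which takes part in the decay of histone mRNA, had 1576 and 688 counts, a log2 ratio of -1.03 (wider interval -1.53 to -0.56). SNRPG, a protein of the Sm ring carried by small nuclear RNAs, had 1039 and 381, a log2 ratio of -1.28 (wider interval -1.956 to -0.66).

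Of 30 chaperone and deposition genes, 2 were called higher and 3 lower (12.2% and 11.9% of all genes), with a median of -0.07. UBN1, a subunit of the complex that deposits replacement H3, had 378 and 131 counts, a log2 ratio of -1.36 (wider interval -2.60 to -0.31). Of the 49 genes of DNA replication and S phase, 2 were called higher and 4 lower, with a median of 0.02. Over all genes the shares were 12.2% and 11.9%, but higher calls fell to 9.09% at 5 to under 30 CPM. They fell to 3.23% at 30 CPM or more, and most genes of this list averaged at least 5 CPM. TYMS, which makes thymidylate, had 378 and 158 counts, a log2 ratio of -1.09 (wider interval -2.21 to -0.11). CENPA, the centromeric H3, had 254 and 215 counts, and the 3 measured genes of other variant histones had a median of -0.07 with 0 called.

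Among 6 measured genes of a list drawn up for RNAs without a poly(A) tail, 1 was called higher and 0 lower (12.2% and 11.9% of all genes), with a median of -0.23. Whether the RNAs counted for them had a tail was not examined. MALAT1, a nuclear long RNA, had 343 counts in shCtrl and 660 in shWBSCR22, a log2 ratio of 1.11 (wider interval 0.47 to 1.75). RN7SL2, an RNA of the signal recognition particle named after its values were seen, had 3580 and 1632, a log2 ratio of -0.97 (wider interval -1.28 to -0.66). Genes of this list thus lay on both sides of 0, and the part of RNA selection in the histone values was not tested. Of 17 reference genes, 16 were called neither higher nor lower, and the median log2 ratio of the list was -0.03.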

How the data were processed

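RNA from 2 PANC-1 libraries was measured, 1 with shCtrl and 1 with shWBSCR22, and grouped by the treatment in the labels. Libraries were prepared from total RNA with the TruSeq RNA kit of Illumina, per the labels' protocols. Per the submitters' processing notes, the tools were bcl2fastq, FastQC, HISAT2, StringTie and DESeq on build GRCh38, without versions, roles or order. Not given in the sources used here are the annotation, the counting program, strand use and the treatment of reads that match several genes. The authors deposited raw counts per gene and FPKM per gene, and the FPKM served for levels compared between genes.

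The histone genes and the companion gene lists were chosen with earlier results of these data known. TMM factors (1.03 and 0.971) came from edgeR 4.0.16 under R 4.3.3, over the 12980 genes that averaged 1 CPM or more, 34 of them histones. Single-gene ratios had 0.5 counts added, and intervals were exact conditional binomial (Clopper-Pearson) 95% intervals from scipy 1.17.1. Sums used no filter and no added counts. Folds against 0 counts were taken against 3 counts in that library. With 1 library in each group there is no replicate spread, so nothing was tested and no p-value is given. The scripts were tested on simulated data. Genes at a similar level were those from 2-fold below to 2-fold above a gene's mean CPM. Every histone gene could be named. Of each companion list, genes called with the wider interval at a mean of at least 5 CPM were named, with SLBP, NPAT and CENPA, except 1 that is not reported here.

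Matched by gene identifier, 64 of the 65 genes were found in GENCODE release 29, 63 with the same coordinates. Other settings tried were scaling by total count, by upper quartile and by DESeq2 (1.42.0), 2 added counts, FPKM with 0.1 or 1 added, other level filters, the wider interval, leaving out the most counted gene, and clustered genes with a deposited span of at most 1000 bases. Leaving out the PS genes or H1FX was chosen after seeing the data. Leaving H2AFJ out of the core sum was not planned either.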

Additional observations from a re-analysis of the deposited data

How the results depend on the processing

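Total-count scaling, which moves all log2 ratios down by 0.09 (log2), gave 0.92 for the clustered sum and 0.62 for the variant sum, and shifted in this way the wider intervals of the H2B sum and of the core sum without H2AFJ include 0, and that of H3F3B lies below 0. DESeq2 and upper-quartile scaling, 2 added counts, FPKM with 0.1 added and leaving out the PS genes kept the direction and the calls of every histone result they were run on. Of the 34 single histone genes, FPKM with 1 added moved 7, FPKM with 0.1 added 4 and total-count scaling 3 beyond their counting intervals. With 1 added to the FPKM the called genes HIST1H2BG (0.91), HIST1H3G (0.64) and HIST1H4E (0.68) were under the size of 1 that a call needs. Without HIST1H1C the clustered sum was 0.70 and the log2 odds ratio of the clustered share turned to -0.0031. Without H1FX the variant sum was 0.39 and that odds ratio 0.62. With clustered spans of at most 1000 bases the clustered sum was 1.24 and the odds ratio 0.54.

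The number of clustered genes called higher, 8, was 15 over every gene with a count, 4 at 5 CPM, 1 at 30 CPM and 4 with the wider interval. The number called lower, 0, was 10 over every gene with a count. The clustered median at 30 CPM, 1.34, is that of HIST1H1C alone. With the wider interval the genes called fell from 4 to 2 for histone mRNA processing, from 5 to 2 for chaperones and from 6 to 1 for DNA replication. Counts under the most frequent low counts, 8 and 15, limit what the H3 genes and the other low genes can show. No paired analysis was possible because each group has 1 library.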
